A study of Mus musculus with 2 samples.

Results

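Slc4a1, Gypc, Rhag, Rhd, Kel, Xk, Ermap, Icam4 and Cd47 encode band 3 and other surface proteins of red blood cells, most of them carriers of blood group antigens. These 9 genes were chosen by name and not by a rule on measured values, though earlier results of these data were known. They were taken out of 21938 protein-coding genes of the GENCODE M21 annotation on chromosomes 1 to 19, X and Y. For each gene the open chromatin intervals were gathered that overlap the gene body or the 50 kb on either side. An interval was assigned to the promoter when it came within 1 kb of any annotated start site of the gene, to the gene body when it lay elsewhere in the gene, and otherwise to the flank. The assay was ATAC-seq, which reads open chromatin as the DNA that a transposase can cut and tag. It was applied to primary erythroblasts, the nucleated precursors of red cells. The cells came from male adult C57BL/6J mice, 5 to 6 weeks old, with no treatment or engineered allele named in the labels, and 50000 cells went into each of 2 biological replicates. Both replicates belong to the only group, so conditions could not be compared. The labels give the replicates separate biosamples but 1 donor identifier, so the spread between them may be in part technical.

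Band 3, the product of Slc4a1, exchanges chloride for bicarbonate across the red cell membrane and ties that membrane to the spectrin skeleton through ankyrin. Glycophorin C (Gypc) ties it at a separate complex of actin, while the Rh glycoprotein (Rhag), the Rh antigen protein (Rhd), Icam4 and CD47 travel in the membrane in company with band 3. Kell (Kel) is bound to Xk by a disulfide bridge, and Ermap stands apart as a member of the butyrophilin family. Erythroid genes of this kind are known targets of GATA1, a zinc finger protein that binds GATA letters, often beside TAL1 at an E box, and of KLF1, which binds CACCC boxes.

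The label of the cells was checked against marker genes. A gene was called open when the thresholded list of each replicate held an interval at most 1 kb from one of its start sites. All 8 erythroblast markers were open, among them Gata1, Klf1 and Epor, against 1 of 23 markers of B cells, T cells, granulocytes and monocytes, macrophages, megakaryocytes, endothelium and hepatocytes. The exception was Itga2b, a megakaryocyte integrin gene, with 7.71-fold enrichment in replicate 1 and 7.28-fold in replicate 2. The thresholded lists held 17777 intervals in replicate 1 and 18837 in replicate 2, and the less strict pseudoreplicated lists 31830 and 33552. Another megakaryocyte marker, Gp9, had a promoter interval in both pseudoreplicated lists but in neither thresholded list. The lists hold no read counts, so depth is unknown. They describe many cells at once, so a site open weakly in all cells and one open strongly in few cannot be told apart.

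The promoter sequences of the genes carried GATA letters close to the start site in 5 of the 7 genes that the RefSeq promoter table (GRCm38.p6) holds. Each entry spans 250 bases before and 50 after the start, so that the start is base 251. The sequences are printed 5′ to 3′ on the strand of the gene, from Rhag at chr17:40810899-40811198 (plus strand), Rhd at chr4:134864286-134864585 (plus), Icam4 at chr9:21029182-21029481 (plus), Kel at chr6:41704276-41704575 (minus), Ermap at chr4:119189946-119190245 (minus) and, as the contrast without a GATA match, Xk at chrX:9272534-9272833 (plus). Capitals mark matches on either strand to GATA, with A or T before it and A or G after it, and to the pair of an E box end and GATA, that is CTG and GATA with 9 bases between them, which overlaps the GATA match.
Rhag: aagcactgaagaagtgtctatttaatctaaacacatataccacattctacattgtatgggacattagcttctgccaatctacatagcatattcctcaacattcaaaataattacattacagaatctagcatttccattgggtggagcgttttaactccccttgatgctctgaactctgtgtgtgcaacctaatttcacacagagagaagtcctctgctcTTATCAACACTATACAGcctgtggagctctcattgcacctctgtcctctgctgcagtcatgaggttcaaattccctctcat
Rhd: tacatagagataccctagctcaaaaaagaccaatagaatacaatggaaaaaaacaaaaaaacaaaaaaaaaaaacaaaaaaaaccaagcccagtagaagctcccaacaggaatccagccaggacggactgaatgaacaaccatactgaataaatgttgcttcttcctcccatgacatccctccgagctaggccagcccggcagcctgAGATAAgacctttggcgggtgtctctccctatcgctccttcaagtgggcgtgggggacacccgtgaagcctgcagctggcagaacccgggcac
Icam4: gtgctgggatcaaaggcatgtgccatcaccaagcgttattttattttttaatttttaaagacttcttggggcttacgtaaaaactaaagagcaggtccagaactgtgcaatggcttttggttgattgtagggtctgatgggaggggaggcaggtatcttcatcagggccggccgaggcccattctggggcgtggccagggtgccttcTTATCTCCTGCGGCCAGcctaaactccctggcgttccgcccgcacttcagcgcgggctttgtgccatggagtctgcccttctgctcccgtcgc
Kel: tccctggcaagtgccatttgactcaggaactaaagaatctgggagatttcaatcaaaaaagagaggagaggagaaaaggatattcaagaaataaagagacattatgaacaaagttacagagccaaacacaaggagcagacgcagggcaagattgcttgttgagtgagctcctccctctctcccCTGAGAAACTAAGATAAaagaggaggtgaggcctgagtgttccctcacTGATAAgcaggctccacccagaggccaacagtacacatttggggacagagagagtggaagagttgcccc
Ermap: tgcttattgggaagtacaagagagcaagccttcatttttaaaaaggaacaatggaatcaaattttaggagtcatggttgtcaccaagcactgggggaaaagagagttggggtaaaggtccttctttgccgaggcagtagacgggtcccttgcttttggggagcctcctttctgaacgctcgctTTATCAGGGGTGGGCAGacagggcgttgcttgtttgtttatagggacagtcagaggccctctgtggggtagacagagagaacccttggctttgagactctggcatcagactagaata
Xk: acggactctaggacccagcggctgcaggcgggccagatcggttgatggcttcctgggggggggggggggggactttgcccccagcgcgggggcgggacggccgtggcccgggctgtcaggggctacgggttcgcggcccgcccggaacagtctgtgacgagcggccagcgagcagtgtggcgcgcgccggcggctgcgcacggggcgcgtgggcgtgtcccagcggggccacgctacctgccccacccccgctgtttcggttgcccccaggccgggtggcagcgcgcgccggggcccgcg

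The GATA matches of these promoters lay within 70 bases before the start site. They began at base 184 in Ermap, 208 in both Rhd and Icam4, and 220 in Rhag, and at bases 195 and 232 in Kel. A match was present in 29.8% of the 32851 promoters of the table. The pair matched in 4 of the 7 genes, Rhag, Icam4, Kel and Ermap, and in 2.51% of all promoters. Slc4a1 and Gypc were not in the table. The promoters differed in CpG content. The ratio of observed to expected CpG was 0.0612 in Kel, 0.0858 in Rhag, 0.300 in Ermap, 0.465 in Rhd and 0.590 in Icam4. It was 0.869 in Xk, and 0.862 and 0.878 in the overlapping entries of Cd47, against a median of 0.384 over the table. Kel, Rhag and Ermap lay below that median, and Rhd and Icam4 lay above it, as did Xk and Cd47. All 5 genes below 0.6, a limit set after the values were seen and just above the value of Icam4, had a GATA match. Neither Xk nor Cd47 had one. Among all promoters below that limit, 38.7% had a GATA match and 3.24% had the pair. Xk held 13 overlapping matches to the CACCC box (CCNCNCCC), most of them shifts along its single unbroken run of G. They are therefore not separate boxes, and the summit of the Xk promoter interval had no CACCC match in either replicate. Rhd and Icam4, which had GATA matches, held CACCC matches too, as did 49.5% of all promoters. Both Xk and Cd47 held the ETS letters CCGGAA, against 14.9% of all promoters.

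The strongest open sites away from start sites were not all of the same make. The windows printed below span the 151 bases around the strongest summit in replicate 1, on the plus strand of GRCm38.p6. They show, in order, the strongest shared site of Xk, Cd47, Icam4 and Kel that lay over 1 kb from any start site, at chrX:9298680-9298830, chr16:49839806-49839956, chr9:21039875-21040025 and chr6:41728319-41728469. Those of Slc4a1, Gypc, Rhd and Ermap are not printed and had no GATA match, and Rhag had no such site. The printed windows therefore overstate how often such sites held GATA letters. Capitals mark GATA matches, and in the Kel window the match, on the minus strand, to letters bound by the insulator protein CTCF (CCA, AG and GGC, each 2 bases apart).
Xk, intron 2: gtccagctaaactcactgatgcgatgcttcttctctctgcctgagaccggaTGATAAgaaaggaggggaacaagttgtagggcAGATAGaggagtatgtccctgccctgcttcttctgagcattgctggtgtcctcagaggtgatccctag
Cd47, intron: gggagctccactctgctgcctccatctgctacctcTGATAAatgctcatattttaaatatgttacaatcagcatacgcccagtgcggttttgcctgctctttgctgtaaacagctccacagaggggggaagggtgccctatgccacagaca
Icam4, past the 3′ end: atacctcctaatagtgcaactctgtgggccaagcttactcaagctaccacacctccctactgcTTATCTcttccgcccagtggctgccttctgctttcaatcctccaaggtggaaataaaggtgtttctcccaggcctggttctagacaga
Kel, upstream: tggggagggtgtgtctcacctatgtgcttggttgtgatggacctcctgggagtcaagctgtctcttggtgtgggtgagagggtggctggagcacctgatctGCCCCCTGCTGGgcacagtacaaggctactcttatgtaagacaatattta

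All 9 genes had an open promoter in both replicates, where 41.4% of all protein-coding genes did. Their promoter intervals were weak by fold enrichment beside those of all open genes. Enrichment, here and throughout, is the authors' peak-caller fold over background at the summit, and it ranks intervals within 1 list. The strongest promoter interval of the 9 genes had a median enrichment of 5.74 in replicate 1 and 5.99 in replicate 2. Over all 9083 open genes the same medians were 9.73 and 9.86, with lower quartiles of 7.79 and 7.90. Every one of the 9 genes lay below that lower quartile in each replicate. The median width of these intervals was also lower, 639 bp in replicate 1 and 611 bp in replicate 2, against 897 bp and 887 bp over all open genes. This did not hold for each gene. Xk, Icam4 and Cd47 lay above the median width of all open genes in both replicates, and Slc4a1 in replicate 1. Low enrichment was not particular to these genes. By mean enrichment the 8 erythroblast markers had a median of 4.99, below the 6.03 of the 9 genes. The other blood group genes and the band 3 complex genes described below had higher medians, 6.42 and 7.47. No test was run on these ranks.

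**Figure D1:**
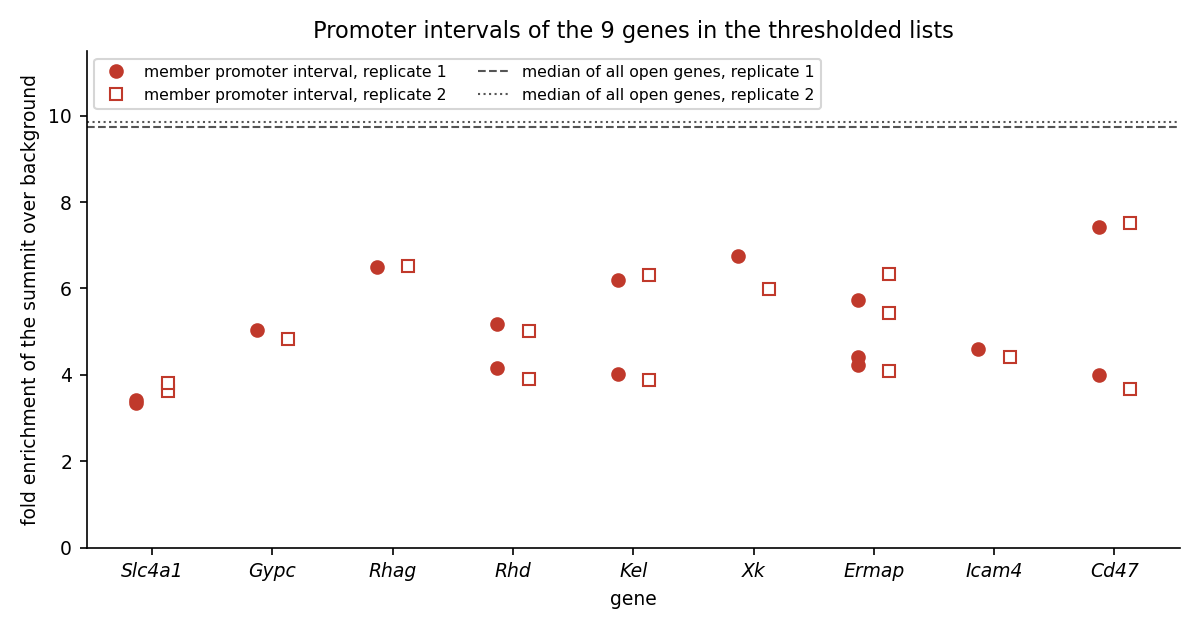
Fold enrichment of the summit (vertical axis) of each promoter interval of the 9 genes (horizontal axis), with filled circles for replicate 1, open squares for replicate 2, and lines at the median of the strongest promoter interval of all open genes. Every promoter interval of the 9 genes lies at 7.51 or lower, below the lines at 9.73 and 9.86, and Slc4a1 is the lowest.

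By mean enrichment of the strongest promoter interval the order of the genes was Cd47 (7.47), Rhag (6.51), Xk (6.37), Kel (6.25), Ermap (6.03), Rhd (5.10), Gypc (4.95), Icam4 (4.51) and Slc4a1 (3.62). From Rhag to Ermap each gene differed from the next by 0.12 to 0.21, no more than the larger SD of the pair. Rhd and Gypc differed by 0.155, just over the larger SD of 0.148. The genes at the top and in the last 4 places were the same, in the same order, in each replicate, while Rhag, Xk and Ermap changed places.

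Slc4a1 had the lowest promoter enrichment and a busy neighbourhood. It was not the lowest by the peak caller's significance. The −log10 p of its strongest promoter interval was 34.7 in replicate 1 and 48.4 in replicate 2, against 26.4 and 22.6 for Xk. The gene spans chr11:102348824-102366203 on the minus strand (ENSMUSG00000006574.15) and has 5 start sites. One promoter interval covered exon 1 at the start of the coding transcripts, with an enrichment of 3.43 in replicate 1 and 3.62 in replicate 2 over 975 and 1207 bp. The other lay in intron 1, 2.41 kb from the outermost 5′ end, with 3.36 and 3.81. The stronger of them was the first in replicate 1 and the second in replicate 2. Only 0.165% and 0.330% of open genes had a strongest promoter interval as weak as this or weaker. A further interval, 0.258 kb and 0.264 kb from the outermost end, was in the pseudoreplicated lists at 2.23 and 2.12, and in the lists made from both replicates, but in neither thresholded list. Its −log10 of the irreproducible discovery rate (IDR) was 0.727 and 0.803, below the lowest value of 1.30 in either thresholded list.

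Around Slc4a1, 12 sites were found and each was in both replicates. The 3 strongest outside its promoters all lay at start sites of other genes. Ubtf, which encodes an activator of ribosomal RNA gene transcription, had the highest, 39.7 kb past the 3′ end of Slc4a1, at 8.62 and 8.36, and another at 4.87 and 5.16. Slc25a39, a mitochondrial carrier gene, had one 42.5 kb upstream at 6.44 and 6.26. Bloodlinc, a noncoding RNA of erythroid cells named here after its values were seen, had a site 9.18 kb upstream of Slc4a1 at 4.65 and 4.85. That interval was 1866 bp wide in replicate 1 and 1140 bp in replicate 2. The 3 sites over 1 kb from any start site were weaker, at means of 2.52, 3.28 and 3.91, and the weakest of them, 6.93 kb upstream, was the one with a GATA match.

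Gypc, the Gerbich antigen gene, had most of its open sites inside it. It spans chr18:32528322-32560034 on the minus strand (ENSMUSG00000090523.2). Its single promoter interval had 5.05 in replicate 1 and 4.84 in replicate 2 (mean 4.95 ± 0.148, SD, n = 2), with a GATA match at the summit. Of its 7 sites, 5 lay in intron 1, at 3.23, 7.13, 7.84, 17.4 and 21.5 kb from the 5′ end. The site at 17.4 kb was the strongest of them, with 6.96 and 7.28, and those at 7.84 kb (5.22 and 5.73) and 7.13 kb (5.52 and 5.35) came next. All but the site at 7.13 kb had a GATA match in both replicates. The strongest site of the whole window, 43.2 kb past the 3′ end, had 8.63 and 8.05 and no GATA match.

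Rhag, whose product forms the gas and ammonium channel core of the Rh complex, had no shared site over 1 kb from any start site. It spans chr17:40811126-40840754 on the plus strand (ENSMUSG00000023926.8). The promoter interval was narrow, 390 and 384 bp, and had nearly the same height in both replicates, 6.49 and 6.52. Its summit lay 23 bp before the start site, beside the GATA match and the pair shown in the printed promoter. The site 17.0 kb upstream, at Crisp2, a gene of a secreted protein of the male reproductive tract, had 15.3 and 17.2. This mean of 16.3 ± 1.33 was the highest among the shared sites of all 9 windows. A further site at a Crisp2 start, 4.26 kb upstream of Rhag, had 7.81 and 8.03. It held a GATA match and 2 matches to the pair in both replicates. A site at 9130008F23Rik had 8.45 and 10.5. Which gene these sites act on was not tested. Intron 1 of Rhag held sites in replicate 2 alone, 1.38 kb and 12.9 kb from the 5′ end, at 4.22 and 5.53, which were missing from even the pseudoreplicated list of replicate 1.

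Rhd, the only Rh antigen gene of the mouse, had open sites at its start and through its first introns. It spans chr4:134864536-134896172 on the plus strand (ENSMUSG00000028825.7). The interval at the start site had 5.19 and 5.01, and another 1.03 kb into intron 1 had 4.16 and 3.91, each with a GATA match. Further inside, the site 4.98 kb into intron 1 had 5.38 and 5.63 with 2 GATA matches, and the one in intron 3, 18.9 kb from the start, had 4.89 and 5.10 with none. The first of these was higher than the promoter interval in both replicates. At the internal start site the less strict lists held an interval of 2.69 and 3.56 that the thresholded lists did not. The strongest sites of the window belonged to Tmem50a (8.11 and 8.61), to a site near the far end with a CTCF match (8.34 and 7.07) and to Syf2, a splicing factor gene (7.88 and 7.41). Of its 15 sites, 11 were in both replicates, 2 in replicate 1 alone and 2 in replicate 2 alone.

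Icam4, the adhesion molecule that carries the LW antigen, is the smallest of the genes, 1.22 kb long at chr9:21029373-21030595 on the plus strand (ENSMUSG00000001014.6). Its promoter interval of 916 and 906 bp spanned its start, with the summit in exon 1, at 4.61 and 4.42, the second lowest of the 9. A stronger site lay 9.36 kb past its 3′ end, at 8.46 and 7.81, with a GATA match and the pair in both replicates. It was the only shared site of the window over 1 kb from any start site. The other strong sites were at start sites of neighbours that serve mitochondria, Fdx1l (9.26 and 10.2) and Mrpl4 (8.66 and 9.03).

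Cd47, whose product tells macrophages not to engulf the cell, had the most shared sites of the 9 genes in the longest window. Per 100 kb its 6.06 shared sites came after Slc4a1 (10.2), Ermap (8.73) and Rhd (8.36), while its 5.13 distal sites per 100 kb were the most of the 9. It spans chr16:49800533-49915010 on the plus strand (ENSMUSG00000055447.19). A single transcript starts at the outermost end, and the others start 54.8 kb or more downstream. The starts near the one used by the RefSeq entries are called the inner starts here, and a further start lies deeper in the gene. The interval at the outermost end, also within 1 kb of a start site of Gm15518, had 7.43 and 7.51. The interval at the inner starts was weaker, at 3.996 and 3.68, and had no GATA match. Its mean of 3.84 lay below the strongest promoter interval of every other gene of the 9 but Slc4a1. Of 13 shared sites, 11 lay over 1 kb from any start site, 5 upstream of the gene, 3 between the outermost and the inner starts and 3 beyond the inner starts. The strongest were at 39.3 kb (8.50 and 8.73) and 107 kb (8.67 and 8.45) from the outermost end, followed by one 34.0 kb upstream (7.44 and 7.19). A GATA match was present in both replicates at 10 of the 11, the site 34.0 kb upstream being the exception.

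Kel, the gene of the Kell endopeptidase, had few sites, among them one of the strongest of all. It spans chr6:41686330-41704339 on the minus strand (ENSMUSG00000029866.13). The promoter interval at the outermost start had 6.19 and 6.30 and held 2 GATA matches and the pair. A second, 1.17 kb into the gene in intron 3, had 4.01 and 3.88 and held no GATA match. The site 2.13 kb upstream, at 6.72 and 6.77 with a GATA match, was higher than the promoter in both replicates. The site 24.1 kb upstream, printed above for its CTCF match, had 13.9 and 13.7, a mean of 13.8 ± 0.166, and stood above 95.4% of all intervals in replicate 1 and 94.6% in replicate 2.

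Xk, the gene of a lipid scramblase that carries the Kx antigen and partners Kell, had its strongest site in an intron. It spans chrX:9272756-9313250 on the plus strand (ENSMUSG00000015342.6), and its start site is the single one annotated. The promoter interval was the widest of the strongest promoter intervals, 1175 bp in replicate 1 and 1344 bp in replicate 2. Its heights were 6.74 and 5.99, and it had no GATA match. The intron 2 site, 26.0 kb from the start, had 14.1 and 14.5, a mean of 14.3 ± 0.291, with 2 GATA matches and the pair. It stood above 96.1% and 96.9% of all intervals. The next were 60.5 kb downstream of the start, past the 3′ end (10.6 and 10.8, with a CTCF match) and 27.7 kb upstream, inside the body of Lancl3 (8.75 and 9.56, with GATA matches). X is present once in these male cells, and its part in these values was not tested.

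Ermap, which carries the Scianna antigens, had the most promoter intervals of the 9 genes. It spans chr4:119175457-119190011 on the minus strand (ENSMUSG00000028644.16) and has 7 start sites. The interval 32 bp before the outermost start had 5.74 and 6.33. One 757 bp upstream had 4.23 and 5.42, and one in intron 2 had 4.42 and 4.09. All 3 had a GATA match in both replicates, while none of its 3 shared sites over 1 kb from any start site did. The strongest other sites were at the start shared by P3h1 and AU022252 (11.2 and 11.9), at Zfp691 just past the 3′ end (9.81 and 9.76) and 14.9 kb upstream within AU022252 (9.46 and 8.71). The site 7.63 kb past the 3′ end differed most between replicates of all shared sites, at 5.44 and 7.67.

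**Figure D2:**
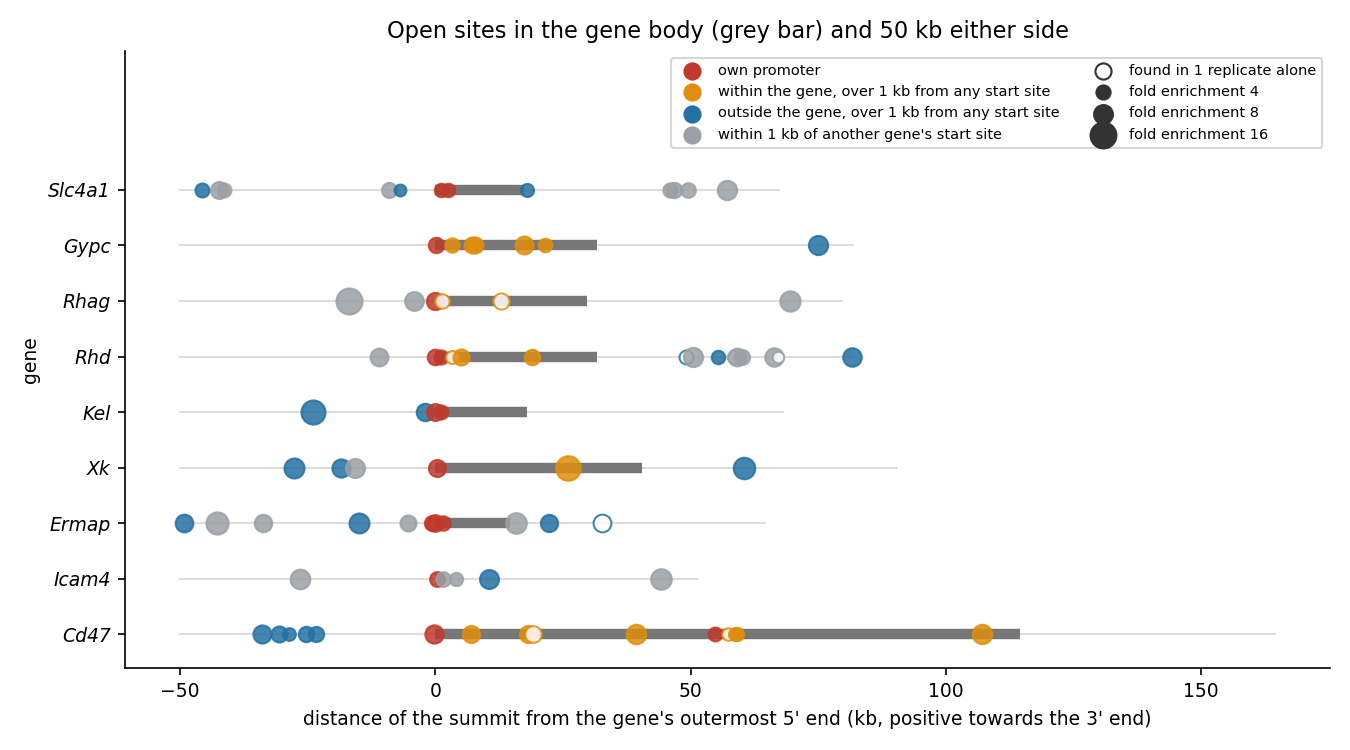
Each circle is an open site in the gene body (grey bar) or 50 kb either side, placed by the distance of its summit from the outermost 5′ end (horizontal axis, kb) for the 9 genes (rows); the area grows with mean fold enrichment, colours give the place and white circles were found in 1 replicate alone. The largest circles lie at Crisp2 beside Rhag (16.3), in intron 2 of Xk (14.3) and upstream of Kel (13.8), and none of these is a promoter of the 9 genes.

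Over the 9 windows, 82 sites were found, of which 73 (89.0%) were in both replicates, against 79.4% of the 20170 sites of the whole lists. The strongest summits of the replicates lay a median of 6 bp apart, and 63 of the 73 lay within 20 bp. The median SD of enrichment over the replicates was 0.185. Of the 9 sites in 1 replicate alone, 7 were in replicate 2, 5 were in the pseudoreplicated list of the other replicate as well, and 8 were in the list made from both replicates.

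Of the 73 shared sites, 15 were at promoters of the 9 genes, 24 within 1 kb of the start site of another gene and 34 distal, that is, over 1 kb from any annotated start site. Among the distal sites 14 lay within the genes and 20 outside. The promoter sites were the weakest class, with a median of the mean enrichment of 4.83, against 6.36 for the distal sites and 6.999 for those at other genes' starts. Over the whole lists the median was 9.13 within 1 kb of a start site and 7.27 for distal sites. The sites at other genes' starts followed that order, and the promoter sites of the 9 genes did not.

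**Figure D3:**
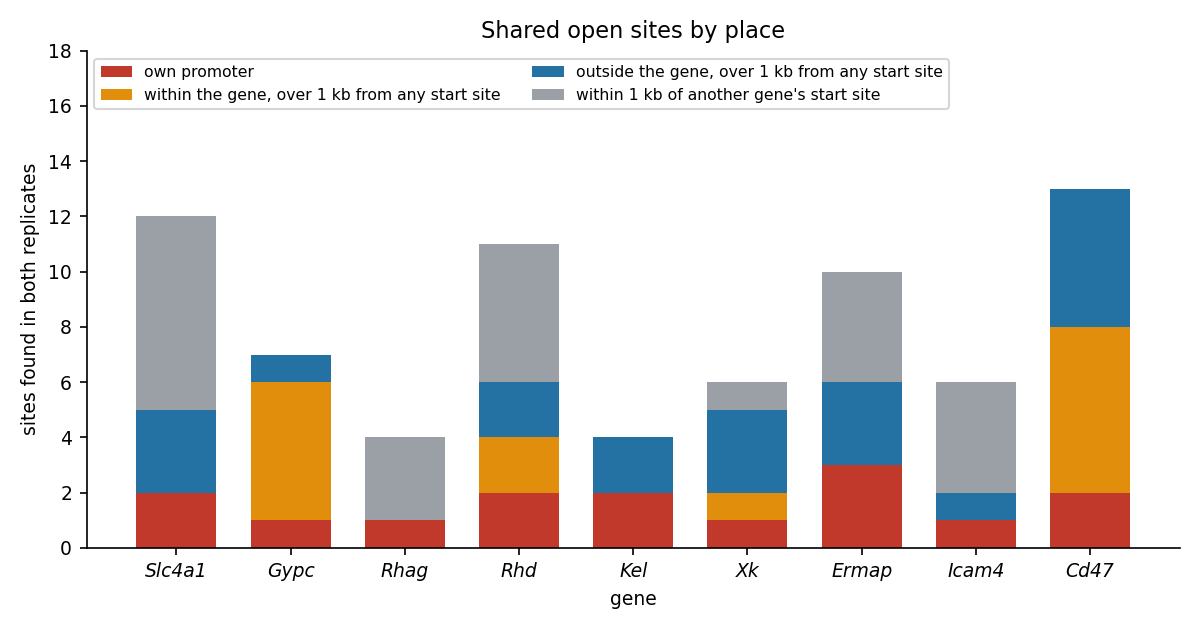
Number of sites found in both replicates (vertical axis) in the window of each of the 9 genes (horizontal axis), stacked by place. Cd47 has 13 sites and Gypc 7, mostly distal, while Slc4a1 has 12 and Rhd 11, with the starts of other genes as their largest class.

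The windows of the 9 genes held a median of 7 shared sites and 3 shared distal sites, against 2 and 0 over all protein-coding genes with windows made the same way. Since gene length sets the size of the window, the counts were also taken per 100 kb, with medians of 5.93 sites and 2.62 distal sites against 0.976 and 0. At least 1 shared distal site was present for 8 of the 9 genes, where 35.2% of all genes had one, and at least 2 for 7 of the 9, where 18.3% did. All genes here include those without an open promoter, while all 9 genes were open. A raised count of distal sites was not particular to these genes. The median was 5 for the 8 erythroblast markers, above the 3 of the 9 genes. It was 2 for the 12 band 3 complex genes and 1 for the 27 other blood group genes, both described below. The 11 distal sites of Cd47 were more than 99.95% of genes had, and the 6 of Gypc more than 98.5%. Rhd and Xk, with 4 each, stood above 94.7%, and Slc4a1 and Ermap, with 3 each, above 90.1%. Rhag had none. Several promoter intervals per gene were also frequent. Slc4a1, Rhd, Kel, Ermap and Cd47, 5 of the 9 genes, had 2 or more in each replicate. Of all 21938 genes, 1396 (6.36%) had them. Only 9083 of all genes were open at all, so the share among open genes is higher. These 5 genes have 2 to 7 annotated start sites each, and the number of start sites was not matched.

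**Figure D4:**
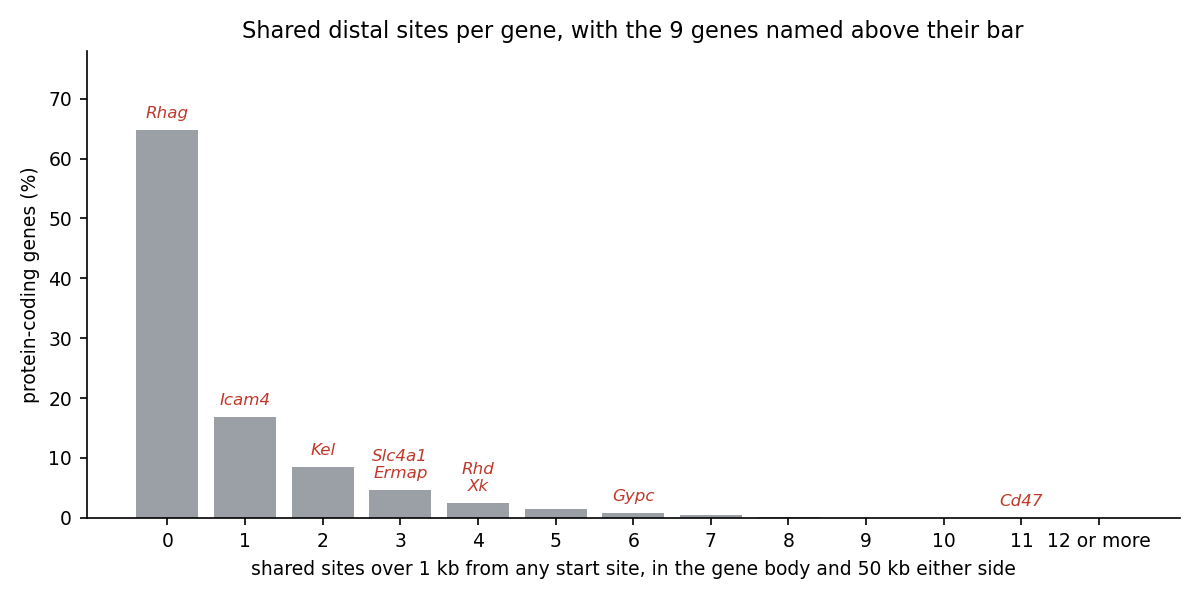
Share of all protein-coding genes (vertical axis, percent) by the number of shared sites over 1 kb from any start site in the window (horizontal axis), with the 9 genes named above the bar they belong to. Rhag stands with the 64.8% of genes at 0, most of the others lie at 2 to 6, and Cd47 lies at 11.

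GATA letters within 75 bases of the strongest summit were found at 11 of the 15 promoter intervals of the 9 genes in each replicate (73.3%, 95% Wilson interval 48.0% to 89.1%). Of all intervals within 1 kb of a start site, 14% had them in each replicate. Among such intervals no stronger than the strongest promoter interval of the 9 genes, a comparison chosen after the values were seen, the shares were 20.8% and 19.97%. The pair was at 4 of 15 in each replicate (26.7%, 10.9% to 52.0%), against 2.56% and 2.48% of all start-site intervals. It was present at Rhag, Kel and Ermap in both replicates, at the intron 1 interval of Slc4a1 in replicate 1 and at the outermost start of Cd47 in replicate 2. The 4 promoter intervals without GATA letters were those at exon 1 of Slc4a1, in intron 3 of Kel, at the start of Xk and at the inner starts of Cd47. Wilson intervals cover counting error only, and intervals of 1 gene are not independent.

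The CACCC box, the CCAAT box and ETS letters each had a lower share at these promoters than over the whole lists, without a test. The CACCC box was at 3 of 15 in each replicate (20%), against 52.2% and 51.9% of all start-site intervals. The CCAAT box (CCAAT) was at 1 of 15, against 30.9% and 30.4%. ETS letters were at 0 of 15, with an upper bound of 20.4%, against 20.8% and 20.4%, and CTCF letters were at 0 of 15, against 4.62% and 4.52%. The E box (CANNTG) was at 10 and 8 of 15, against 40.5% and 40.1%, and NF-E2 or AP-1 letters (TGANTCA) were at 1 of 15, against 3.29% and 3.39%.

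At the distal sites the whole-list shares of GATA, the pair and CTCF lay inside the Wilson intervals of the 9 genes. GATA letters were at 20 of 35 intervals in replicate 1 (57.1%, 40.9% to 72.0%) and 22 of 40 in replicate 2 (55%, 39.8% to 69.3%), against 45.9% and 44.9%. Of the 34 shared distal sites, 20 had them in both replicates, against 47.2% of all 6105 such sites, and 10 of these 20 belonged to Cd47 and 4 to Gypc. The pair was at 4 intervals in each replicate, 11.4% and 10%, against 11.8% and 11.1%. CTCF letters were at 4 and 6, 11.4% and 15%, against 17.6% and 18.9%. A match is a run of letters, and binding of a factor was not measured.

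**Figure D5:**
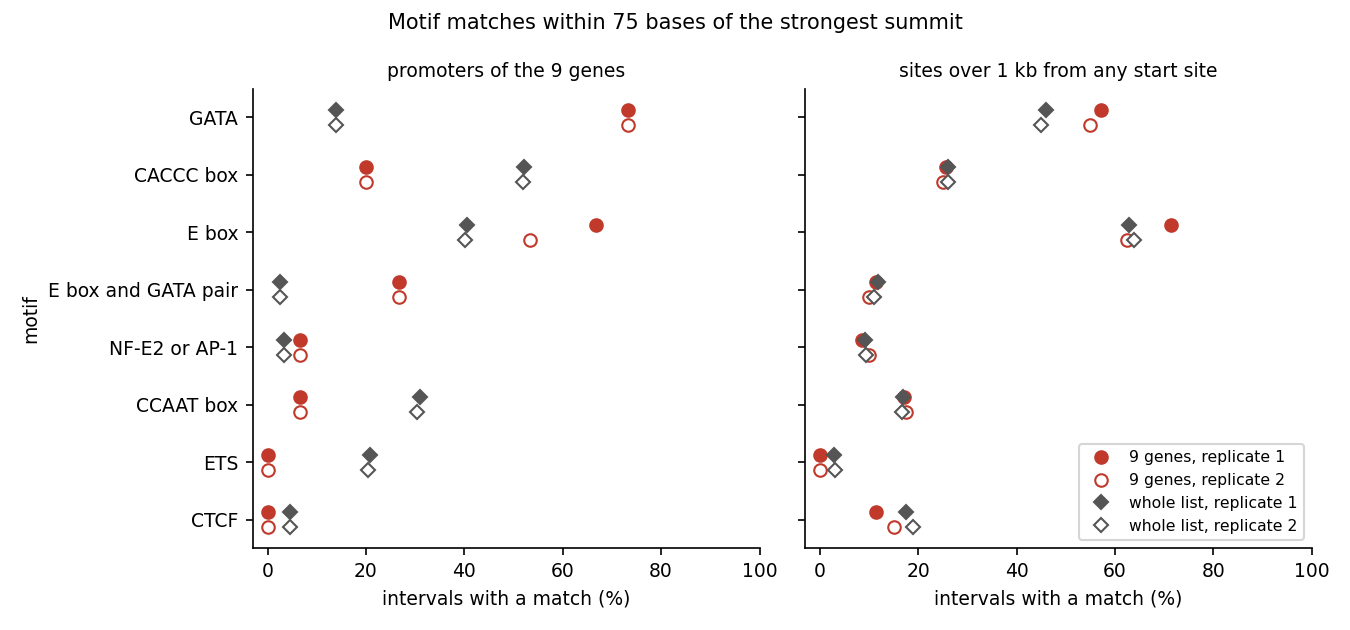
Share of intervals with a motif match within 75 bases of the strongest summit (horizontal axis, percent) for each motif (rows), at promoters of the 9 genes on the left and at distal sites on the right, as circles for the 9 genes and diamonds for the whole list, filled for replicate 1 and open for replicate 2. GATA at promoters (73.3% against 14%) is set apart on the left, while on the right GATA lies at 57.1% and 55% against 45.9% and 44.9%.

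Of 27 genes of other blood group systems, 16 were open (59.3%), against 41.4% of all protein-coding genes. By the outermost 5′ end alone 13 were open, a call for which no share of all genes is given. The median strongest promoter enrichment of the 16 open genes was 6.42. The highest were the complement regulators Cd55 (10.3 in replicate 1 and 9.65 in replicate 2) and Cd59a (8.47 and 8.23), the choline transporter Slc44a2 (8.83 and 8.53) and the prion protein gene Prnp (8.34 and 8.10). Those without an open promoter were the glycosyltransferase genes Abo, Fut1, B3galnt1, A4galt, Gcnt2 and Gbgt1, the adhesion and signalling genes Bcam, Cd44 and Sema7a, the channel gene Aqp3, and Emp3. Of these 11, Cd44 had an interval in replicate 2, at 5.04, and in both pseudoreplicated lists.

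Genes of the band 3, ankyrin and actin junction complexes, together with the Xk partner Vps13a, were open in 12 of 12, against 41.4% of all protein-coding genes. By the outermost 5′ end alone 9 of these 12 genes were open, again without a share of all genes. Their median strongest promoter enrichment was 7.47, above the median of 6.03 over the 9 genes by mean enrichment. The highest were Mpp1, a membrane scaffold gene (10.7 and 11.8), Vps13a, which encodes a lipid transfer protein (10.1 and 10.3), Epb42, whose product joins band 3 to ankyrin (9.48 and 9.62), and the spectrin gene Sptb (8.34 and 7.93). The lists share 1 gene.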

How the data were processed

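Peak lists of 2 replicates of mouse erythroblast ATAC-seq were used, as intervals in mm10, per the labels. Library preparation, aligner and peak caller: not given in the sources used here. For each replicate there was a thresholded, a pseudoreplicated and a ranked list, and lists made from both replicates (replicated, conservative) served as alternatives. The deposited enrichment is the fold of a summit over background from the authors' peak caller. Significance was deposited as −log10 p, and the −log10 of the IDR comes from the ranked lists, per the file listings. No scaling between lists is given there, so enrichment ranked intervals within a list, and mean ± SD describes 2 lists. No read counts were present, so depth is unknown. The label of replicate 2 names 2 sequencer models.

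Repeated lines of an interval were merged and the strongest summit kept. Intervals of both thresholded lists that overlapped by at least 1 bp formed a site. Motifs were sought on both strands in 151 bases around the strongest summit, in GRCm38.p6. Python 3.11.15, NumPy 2.4.6 and SciPy 1.17.1 were used, and the steps were tested on simulated intervals. No significance test was run: counts stand beside the share of all genes or intervals, with Wilson intervals at 95%. The text names every promoter interval of each gene and its 3 strongest other shared intervals, and of each further list the 4 open genes with the highest enrichment and every gene not open. Other sites were named after their values were seen. The genes, lists and motifs were chosen with earlier results of these data known. The values of 1 gene that belongs to both further lists are not reported here.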

Additional observations from a re-analysis of the deposited data

How the results depend on the processing

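The count of 9 open promoters was the same with promoters of 500 bp or 2 kb, the outermost 5′ end alone, start sites of coding transcripts, each other list, summits in place of any base, and either replicate left out. Promoters of 2 kb and the omission of a replicate only loosen the call, so under these settings the count could not change. The 12 open genes of the band 3 complex list numbered 9 by the outermost 5′ end, 11 with promoters of 500 bp and 11 by the strongest summit, and the 16 open genes of other blood group systems 13 to 17 over all alternatives. Sites in both replicates numbered 73, against 140 intervals in the replicated list. Distal sites numbered 34, against 82 in the replicated and 52 in the conservative list. The replicated and conservative lists were made from both replicates, so an interval there need not be called in each. With either replicate left out the counts were 75 to 82 and 35 to 40. The median promoter enrichment of 6.03 was 6.22 in the replicated list, 5.10 for the interval nearest to a start site, and 5.74 to 5.99 with a replicate left out. The nearest interval lowered Cd47 to 3.84. The mean GATA share over all intervals of the windows was 47.2%, against 27.0% of the whole lists. It was 38.9% against 22.2% within 50 bases of the summit, 51.7% against 30.4% within 100 bases, 56.1% against 37.5% over all summits, 21.03% against 12.9% for AGATAA alone, and 40.1% against 27.1% in the pseudoreplicated lists. It ranged from 46.3% to 48.0% with a replicate left out. No paired analysis was possible because there was 1 group. With 2 replicates, no read counts and 1 donor identifier, neither depth nor the spread between animals could be assessed.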
